A study of Arabidopsis thaliana with 6 samples.

Results

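Clusters 3 and 4 of the numbered clusters into which Arabidopsis small RNA (sRNA) loci had been sorted were compared with each other and across genotypes. All loci of the deposited list whose cluster number was 3 or 4 were taken, which gave 122 loci of cluster 3 and 150 loci of cluster 4, 272 of the 1633 listed loci. Beyond the authors' listing, described below, no value of the libraries entered this rule, but it was set with earlier results of these data known. The sources used here do not say what the cluster numbers stand for, so they serve as names only. The libraries came from inflorescence tissue of 5-week-old Arabidopsis thaliana plants, with 3 libraries of ndx1-4, in which a T-DNA insertion (WiscDsLox344A04) disrupts NODULIN HOMEOBOX (NDX), and 3 libraries of the wild-type accession Col-0. Each library was made from RNA pooled from several plants, and ndx1-4 was a single insertion line. The question was how the abundance of sRNAs at such loci depends on NDX. The authors listed a locus where their own test gave an adjusted p under 0.05, so a difference between genotypes was a condition for being listed and the calls given here are no independent evidence of one.

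Plants make sRNAs from several kinds of locus. MicroRNAs (miRNAs) are cut from short hairpin precursors, secondary small interfering RNAs (siRNAs) from double-stranded copies of a cleaved transcript, and heterochromatic siRNAs from transposons and intergenic repeats, where they direct DNA methylation. Reads of sRNA size are also recovered from transfer RNAs (tRNAs) and from the small nucleolar RNAs (snoRNAs) that guide the modification of ribosomal RNA, whether as processed fragments or as breakdown products. NDX, a homeodomain protein of plants, has been tied to chromatin that gives rise to siRNAs.

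Sequences of members on which the results turn are shown first, read from the TAIR10.1 assembly of RefSeq. Of the tRNA members, 1 locus is shown from each of the His, Asp and Tyr families, of which His and Asp were called lower throughout and Tyr was the most abundant. Capitals mark the bases that belong to the tRNA gene, and the strand of that gene is shown. The tRNA-His locus (AT1G07760, chr1:2406879-2406911, minus strand) and the tRNA-Asp locus (AT1G73900, chr1:27788977-27789007, plus strand, chosen after its values were seen) stop inside the 5′ part of the gene, while the tRNA-Tyr locus (AT4G11177, chr4:6819285-6819383, plus strand) holds all 84 bases of it.
tRNA-His locus: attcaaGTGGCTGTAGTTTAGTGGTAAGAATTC
tRNA-Asp locus: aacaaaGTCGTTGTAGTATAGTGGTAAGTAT
tRNA-Tyr locus: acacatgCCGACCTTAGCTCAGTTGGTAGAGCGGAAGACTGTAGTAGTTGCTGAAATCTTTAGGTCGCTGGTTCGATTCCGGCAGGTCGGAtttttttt

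Of the cluster 3 members at miRNA genes, the most abundant (MIR161) and the one with the highest fold change (MIR8183) are shown by the mature miRNAs that RefSeq annotates there. Capitals mark the seed, bases 2 to 8. The mature sequences of MIR161 (chr1:17825722-17825742 and chr1:17825731-17825751, plus strand) overlap on the precursor but have different seeds, and neither seed is that of miR8183 (chr3:11747799-11747819, minus strand).
ath-miR161.1: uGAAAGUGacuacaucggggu
ath-miR161.2: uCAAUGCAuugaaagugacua
ath-miR8183: uUUAGUUGacggaauuguggc

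The cluster 4 loci shown are 3 of those with the highest or lowest fold changes, and all lie between genes. Capitals mark G and C, which are sparse in this cluster. The locus near AT5G20100 (chr5:6789302-6789461) is 35.6% GC, that near SPT (chr4:17413049-17413136) 22.7% and that near ZIP3 (chr2:13702419-13702541) 27.6%, all on the plus strand because the list gives no strand.
Locus near AT5G20100: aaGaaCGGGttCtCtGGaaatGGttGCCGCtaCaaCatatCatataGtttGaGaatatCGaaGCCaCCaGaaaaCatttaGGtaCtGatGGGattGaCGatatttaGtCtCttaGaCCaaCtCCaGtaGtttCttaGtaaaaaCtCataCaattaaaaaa
Locus near SPT: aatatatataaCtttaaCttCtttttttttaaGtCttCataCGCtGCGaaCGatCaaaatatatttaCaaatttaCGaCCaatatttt
Locus near ZIP3: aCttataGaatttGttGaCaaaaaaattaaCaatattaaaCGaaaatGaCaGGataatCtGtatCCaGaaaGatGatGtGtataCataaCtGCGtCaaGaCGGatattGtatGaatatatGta

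The clusters moved apart in ndx1-4. Most cluster 4 loci were called higher than in Col-0 and cluster 3 held more lower than higher calls, and the distance between their medians was larger in every ndx1-4 library than in any Col-0 library. Each locus was expressed as log2(normalised count + 1) relative to its Col-0 mean, with counts first divided by the scale factor of their library (normalised counts), and the median over cluster 3 was subtracted from the median over cluster 4 within each library. This difference was 1.74, 1.504 and 1.27 in ndx1-4 replicates 1 to 3, against -0.06, 0.03 and 0.01 in Col-0. Its mean was 1.51 ± 0.235 in ndx1-4 and -0.01 ± 0.0455 in Col-0 (SD, n = 3 each), and the genotypes differed by 1.51 (two-sided exact permutation p 0.1, the smallest that 3 libraries against 3 can give). Because it is taken within a library, the scale between libraries hardly enters it. Col-0 values of this and later contrasts lie near 0 by construction, since each locus is set against its Col-0 mean. With each locus set against its mean over all 6 libraries instead, an alternative added after the data were seen, the difference was 1.06, 0.72 and 0.47 in ndx1-4, against -0.70, -0.66 and -0.64 in Col-0, and the genotypes differed by 1.42 (exact permutation p 0.1). The value was 1.25 when the 69 cluster 3 members at tRNA, snoRNA or small nuclear RNA (snRNA) genes were left out, an alternative added after the data were seen. Of the remaining cluster 3 members, 25 were called higher and 15 lower, so the excess of lower calls lay in the classes left out. The median log2 fold change of the remaining members was -0.12, against -0.09 over the whole list.

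Raw counts without any scaling gave the same order. Cluster 4 supplied 16.3%, 14.6% and 12.8% of the counts of both clusters together in ndx1-4 replicates 1 to 3, against 8.63%, 8.97% and 9.47% in Col-0. The shares did not overlap, with 14.6% ± 1.73 in ndx1-4 and 9.02% ± 0.424 in Col-0, a difference of 5.56 percentage points (SD, n = 3 each, exact permutation p 0.1). Cluster 4 totals were 33998, 36252 and 24021 counts in ndx1-4, against 14421, 14922 and 16892 in Col-0. Cluster 3 totals were 174491, 212400 and 163089 counts in ndx1-4, against 152783, 151534 and 161522 in Col-0. All listed loci together held 2162920 to 2935774 counts in ndx1-4 libraries and 2276389 to 2553018 in Col-0 libraries, which is the depth of the list and not of the libraries.

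**Figure D1:**
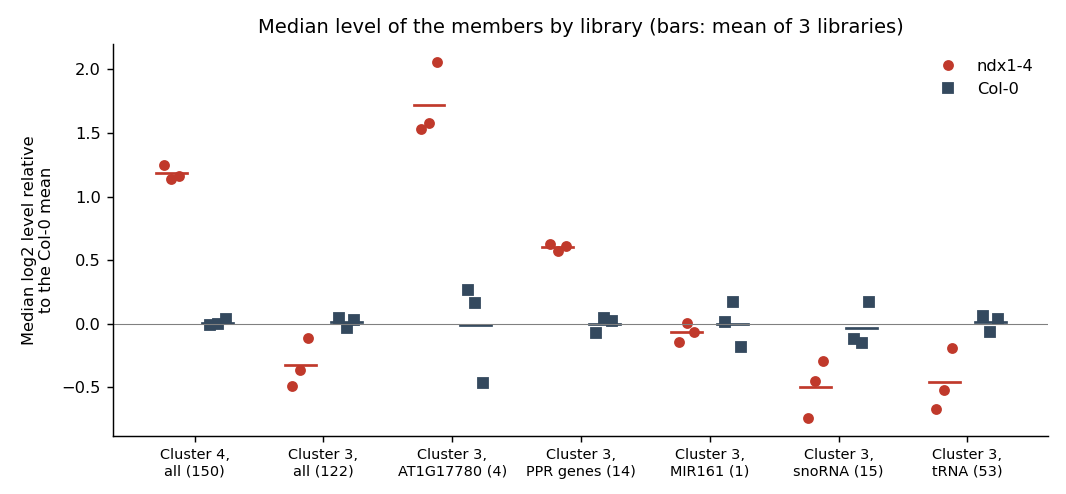
Median log2 level of cluster 4, cluster 3 and classes of cluster 3 in each library, relative to the Col-0 mean of each locus, with ndx1-4 as circles, Col-0 as squares and the mean of 3 libraries as a bar. Cluster 4 medians sit between 1.14 and 1.25 in ndx1-4, while within cluster 3 the loci at pentatricopeptide repeat (PPR) genes lie above 0 and the tRNA and snoRNA loci below 0 in every ndx1-4 library.

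Both clusters were short but differed in make-up. The median length was 145.5 bp in cluster 4 (33 to 486 bp) and 117.5 bp in cluster 3 (23 to 1872 bp), against 438 bp over the other 1361 listed loci. Cluster 4 was poor in G and C, with a median of 27.9% GC against 39.9% in cluster 3, 35.5% in the other listed loci and 36.0% over the nuclear chromosomes. Of the cluster 4 loci, 135 (90.0%) had under 35% GC, against 28 (23.0%) of cluster 3 and 630 (46.3%) of the other loci. In cluster 3, 41 loci were 50 bp or shorter and 24 were longer than 500 bp, whereas cluster 4 had 5 and 0 such loci. Pericentromeric bins, 500 kb windows with few protein-coding genes, held 16 cluster 4 loci (10.7%) and 5 cluster 3 loci (4.10%), against 51.4% of the other listed loci. Those others were mixed, with 10.6% of cluster 5 and 88.9% of cluster 8 in such bins, so cluster 4 was like cluster 5 in this.

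What the loci overlap separated the clusters further. In cluster 4, 114 loci (76.0%) overlapped no annotated gene, 28 lay at protein-coding genes, 3 at pseudogenes, 2 at tRNA genes, 2 at other non-coding genes and 1 at a snoRNA gene. The share without a gene was close to the 76.9% of the other listed loci and the 71.0% of cluster 5. In cluster 3 only 6 loci (4.92%) overlapped no gene, and the rest lay at 53 tRNA, 35 protein-coding, 15 snoRNA, 8 miRNA, 2 other non-coding, 2 pseudogene and 1 snRNA annotations, with a non-coding RNA gene taking precedence where it shared a locus with a coding gene. The intergenic cluster 4 loci were close to genes, at a median of 525.5 bp from the nearest protein-coding gene, and 83 of 114 lay within 1000 bp of one. For 78 of them that gene began on the near side (the locus was upstream) and for 36 it ended there. The median log2 fold change was 1.13 for the upstream and 1.14 for the downstream loci.

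**Figure D2:**
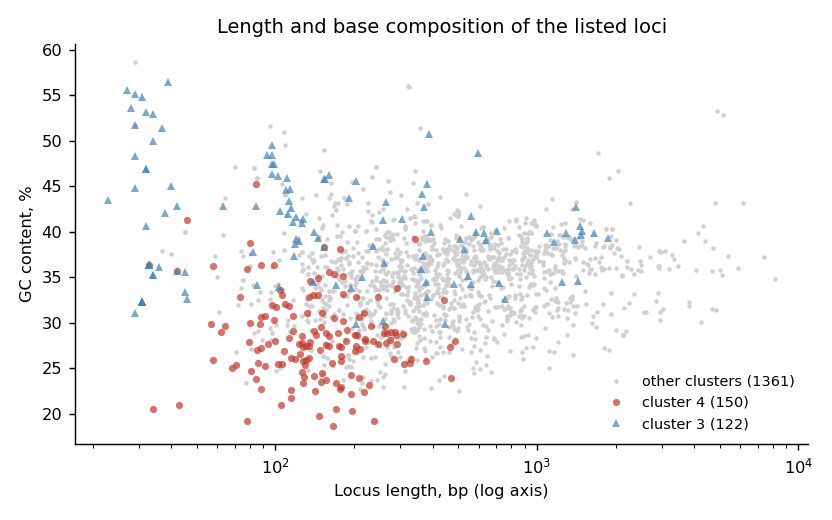
Length (bp, log axis) against GC content (%) of the listed loci, with cluster 4 as circles, cluster 3 as triangles and the other clusters as grey points. Cluster 4 forms a group of short loci that are mostly under 35% GC, and cluster 3 spreads from loci of 23 bp to loci of 1872 bp.

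Near-identical copies were more frequent in cluster 3 than in cluster 4. A read could be counted at every locus it matched, but how many reads were shared was not measured. In cluster 3, 45 loci (36.9%) had a near-identical copy elsewhere in the genome, against 9 cluster 4 loci (6.0%). Both shares were below the 54.6% of the other listed loci. The 122 loci of cluster 3 held 114 distinct sets of 6 counts, while all 150 sets of cluster 4 were distinct. Cluster 3 loci also lay in runs. Another listed locus was found less than 1000 bp away for 27 of them, and it belonged to cluster 3 in 22 cases. For cluster 4 this was so at 18 loci, with 6 of the neighbours in cluster 4 and 7 in cluster 5.

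Counts were tested per locus with edgeR's quasi-likelihood test across the whole list, and a locus with a Benjamini-Hochberg adjusted p under 0.05 was called. The filter on low counts kept 146 of 150 cluster 4 loci and 121 of 122 cluster 3 loci. In cluster 4, 123 loci were called higher and 17 lower in ndx1-4, and 6 were not called, with a median log2 fold change of 1.17 (quartiles 0.73 and 1.88). In cluster 3, 25 were called higher, 47 lower and 49 neither, with a median of -0.30 (quartiles -0.70 and -0.16). Over the whole list 64.8% of loci were called, 39.3% higher and 25.6% lower, and the median was -0.09. Libraries of ndx1-4 lay above or below all Col-0 libraries at 126 and 20 loci of cluster 4 and at 25 and 46 of cluster 3, against 39.3% and 27.0% of the list.

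The number of cluster 3 loci called lower was not firm. It was 78 without ndx1-4 replicate 3, and 32 with column totals as the scale. The zero point of the scale is uncertain because it was set on loci selected for change. With a scale set on listed loci outside pericentromeric bins, the median of all loci moved to -0.67, that of cluster 4 to 0.58 and that of cluster 3 to -0.89, with 88 higher and 23 lower calls in cluster 4 and 10 and 96 in cluster 3. Fold changes, signs and calls below rest on the scale used for the calls above, and are to be read against the list median of -0.09. For some classes a difference within a library is given beside them.

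**Figure D3:**
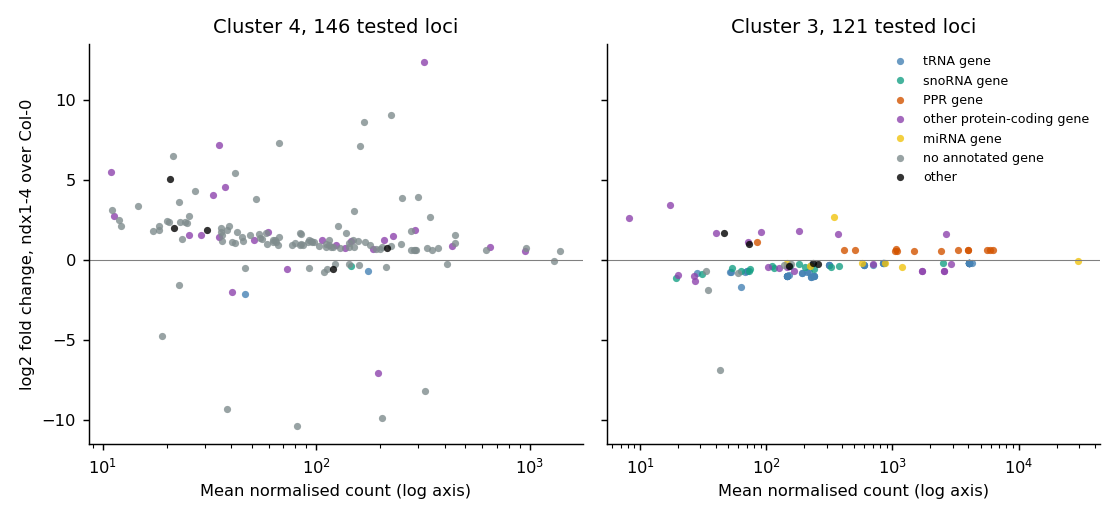
Fitted log2 fold change (ndx1-4 over Col-0) against the mean normalised count (log axis) of the tested loci of cluster 4 and cluster 3, coloured by the gene they overlap. Cluster 4 runs from -10.36 to 12.34 with most loci above 0, while cluster 3 holds a band of PPR loci above 0 and a band of tRNA and snoRNA loci below it.

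Of the 25 cluster 3 loci called higher, 14 belonged to a single gene family. PPR proteins bind organellar RNA and guide its processing, and in Arabidopsis a group of their transcripts is cut by miRNAs and trans-acting siRNAs and gives rise to secondary siRNAs. At 14 cluster 3 loci in 12 annotated PPR or related tetratricopeptide repeat genes on chromosome 1 (23177679 to 23509156), all 14 were called higher in ndx1-4, with log2 fold changes of 0.55 to 1.11 and a median of 0.61. The locus in AT1G63400 had 8791, 9297 and 6664 counts in ndx1-4, against 3950, 4982 and 4836 in Col-0. Its normalised count was 7537 ± 126 in ndx1-4 and 4974 ± 636 in Col-0 (SD, n = 3 each), and the fitted log2 fold change was 0.60 (SE 0.0916, adjusted p 3.20e-04 in edgeR). The locus in AT1G63080 had 8460, 8689 and 6435 counts in ndx1-4, against 3780, 4719 and 4605 in Col-0 (log2 fold change 0.60, SE 0.0908, edgeR adjusted p 2.98e-04). After MIR161 these were the most abundant loci of the cluster, and at neither did the genotypes overlap.

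The other PPR loci behaved alike. In RPF2 and RPF3, which encode factors for the 5′ processing of mitochondrial transcripts, the loci had log2 fold changes of 0.66 and 0.62. RPF2 had 1678, 1493 and 1115 counts in ndx1-4, against 721, 705 and 860 in Col-0, and RPF3 had 4550, 5022 and 3670, against 2181, 2443 and 2645. The locus across AT1G63130, which also carries the annotated miRNA gene MIR5652, had 5523, 5894 and 4327 counts in ndx1-4, against 2683, 2846 and 3196 in Col-0 (log2 fold change 0.61, edgeR adjusted p 4.27e-05). Nearly the same counts stood at AT1G62910 (5470, 5898 and 4382, against 2660, 2870 and 3134), although neither locus had a near-identical copy by the definition used. How many reads such loci shared was not measured, so they may not be separate measurements. The PPR loci made up 30.0%, 25.9% and 24.6% of cluster 3 counts in ndx1-4, against 15.97%, 18.6% and 18.2% in Col-0.

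Within a library, the PPR loci stood above the tRNA loci of the same cluster in ndx1-4. The difference of their medians was 1.29, 1.09 and 0.81 in ndx1-4, against -0.14, 0.11 and -0.02 in Col-0, and the genotypes differed by 1.08 (1.06 ± 0.245 and -0.02 ± 0.12, SD, n = 3 each, exact permutation p 0.1). Both groups were formed after their values were seen, so the contrast describes them and is no independent evidence of a difference. The contrast does not rest on the scale, whereas the PPR calls do. With the scale set outside pericentromeric bins the log2 fold change was 0.02 at AT1G63400 (edgeR adjusted p 0.888) and 0.03 at AT1G63130 (edgeR adjusted p 0.715).

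A second set of higher cluster 3 loci lay in AT1G17780, annotated as an uncharacterized protein, and in a related stretch on chromosome 2. The locus at chr1:6124700-6125245 had 266, 332 and 313 counts in ndx1-4, against 82, 82 and 55 in Col-0 (log2 fold change 1.83, SE 0.221, edgeR adjusted p 9.15e-05). The locus at chr1:6124264-6124529 had 487, 646 and 659 counts in ndx1-4, against 192, 173 and 126 in Col-0 (log2 fold change 1.65, edgeR adjusted p 2.23e-04). A further locus of the gene, the 36 bp at chr1:6124063-6124098, had 161, 135 and 149 counts, against 45, 40 and 29 (log2 fold change 1.74, edgeR adjusted p 1.92e-04). All 4 loci of AT1G17780 were higher, and their median stood at 1.53, 1.58 and 2.06 in ndx1-4, against 0.26, 0.17 and -0.46 in Col-0.

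The stretch on chromosome 2 spans AT2G16580, a gene of the SAUR-like auxin-responsive family, and AT2G16575, and shares near-identical sequence with 2 of the AT1G17780 loci. It was the most abundant locus of this set, with 3839, 4608 and 4407 counts in ndx1-4, against 1354, 1314 and 880 in Col-0 (log2 fold change 1.63, edgeR adjusted p 1.17e-04), and was named after its values were seen. From which of the genes its reads came cannot be told apart.

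Of the 8 cluster 3 loci at miRNA genes, 2 were called higher (MIR8183 and the locus of MIR5652 in AT1G63130), 3 lower and 3 neither. MIR8183 had the highest fold change of the cluster 3 loci named by rule. It had 749, 612 and 562 counts in ndx1-4, against 59, 109 and 85 in Col-0. Its normalised count was 592 ± 90.9 in ndx1-4 and 91.7 ± 29.5 in Col-0 (SD, n = 3 each), and the fitted log2 fold change was 2.69 (SE 0.203, adjusted p 4.09e-06 in edgeR). The annotated miRNA gene lies inside AT3G30110, a transcribed pseudogene, and the counts are those of the whole 119 bp locus and not of the mature miRNA alone.

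MIR161, whose miRNAs target PPR transcripts in Arabidopsis, was the most abundant locus of the cluster and was not called. It had 31332, 38032 and 25531 counts in ndx1-4, against 27234, 29967 and 26470 in Col-0, which gave 28833 ± 1502 normalised counts in ndx1-4 and 30338 ± 3758 in Col-0 (SD, n = 3 each). The genotypes overlapped (log2 fold change -0.07, SE 0.101, edgeR adjusted p 0.515). Relative to MIR161 in the same library, the PPR median was 0.77, 0.57 and 0.68 in ndx1-4, against -0.08, -0.13 and 0.21 in Col-0, a difference of 0.67 (exact permutation p 0.1). The PPR group was formed after its values were seen, and a link between MIR161 and the PPR loci was not tested. MIR161 took 17.96%, 17.9% and 15.7% of the cluster 3 counts in ndx1-4, against 17.8%, 19.8% and 16.4% in Col-0.

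The other miRNA loci moved little. The counts are those of the listed loci, and at MIR166b, MIR168a and MIR173 the locus holds 1 of the annotated arms of the hairpin, miR166b-5p, miR168a-3p and miR173-3p, and not the other. The locus in MIR166b had 1323, 1171 and 825 counts in ndx1-4, against 1120, 1234 and 1419 in Col-0. Normalised to the library scale it was 1006 ± 126 in ndx1-4 and 1359 ± 94.4 in Col-0 (SD, n = 3 each; log2 fold change -0.43, edgeR adjusted p 3.04e-03). The locus in MIR168a, 39 bp long, had 604, 691 and 462 counts in ndx1-4, against 604, 518 and 588 in Col-0 (log2 fold change -0.21, edgeR adjusted p 0.0456), a call that DESeq2 did not give (adjusted p 0.150). The locus of MIR5995b and MIR5595a had 203, 231 and 194 counts, against 223, 235 and 228 in Col-0 (log2 fold change -0.36, edgeR adjusted p 0.0253, and 0.0763 by DESeq2). The locus in MIR173, 29 bp long, had 154, 174 and 115 counts in ndx1-4, against 141, 135 and 158 in Col-0 (log2 fold change -0.22, edgeR adjusted p 0.116). MIR3933 had a log2 fold change of -0.17 (edgeR adjusted p 0.215).

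Loci at the 2 other non-coding genes of cluster 3 were called higher. AT1G09075 had 78, 100 and 58 counts in ndx1-4, against 18, 22 and 20 in Col-0 (log2 fold change 1.71, edgeR adjusted p 1.04e-04). The locus of AT1G09793 and AT1G09797 had 87, 111 and 112 counts in ndx1-4, against 44, 33 and 59 in Col-0 (log2 fold change 0.97, edgeR adjusted p 6.10e-03).

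All 53 tRNA loci of cluster 3 had a negative log2 fold change, between -1.70 and -0.16 with a median of -0.31. Of them, 24 were called lower and 0 higher. Over the whole list, 978 of 1627 tested loci had a negative value and 25.6% were called lower. How far the tRNA loci fell went with the amino acid. The 6 tRNA-His loci were all called lower, at log2 fold changes of -1.04 to -1.002. The locus in AT1G07760 had 165, 189 and 133 counts in ndx1-4, against 260, 246 and 342 in Col-0, or 148 ± 3.94 normalised counts in ndx1-4 and 304 ± 33.9 in Col-0 (SD, n = 3 each; log2 fold change -1.04, SE 0.117, edgeR adjusted p 6.21e-05). The loci at AT5G02505 and AT5G49435 had log2 fold changes of -1.04 and -1.01. The 6 loci had nearly the same counts, with 165 to 176 in ndx1-4 replicate 1 and 260 to 274 in Col-0 replicate 1, so their calls are not 6 separate ones. All 16 tRNA-Asp loci, which held only 10 distinct sets of counts, were called lower too, at -1.01 to -0.70, with 83.6, 94.8 and 113 median normalised counts in ndx1-4, against 224, 153 and 205 in Col-0.

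The abundant families moved less. The 16 tRNA-Tyr loci, which include the most abundant tRNA members, had log2 fold changes of -0.17 to -0.16 and none was called. The 3 most abundant were at AT4G39195, AT2G36280 and AT4G11177. AT4G11177 had 3487, 4973 and 3898 counts in ndx1-4, against 4003, 3674 and 4158 in Col-0, so the genotypes overlapped in normalised counts (3804 ± 701 in ndx1-4 and 4272 ± 171 in Col-0, SD, n = 3 each, edgeR adjusted p 0.236). In AT4G39195 the counts were 3676, 5266 and 4210, against 4278, 3905 and 4353, and in AT2G36280 they were 3498, 4991 and 3910, against 4028, 3679 and 4174. All 16 loci held between 3480 and 3676 counts in ndx1-4 replicate 1, and how many of these reads were shared was not measured. The 4 tRNA-Ser, 3 tRNA-Lys and 1 tRNA-Gly loci were at -0.32 to -0.30 without a call. Of the 6 tRNA-Ala loci, 5 were at -0.18 to -0.17 and uncalled, and 1 was called at -0.81.

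**Figure D4:**
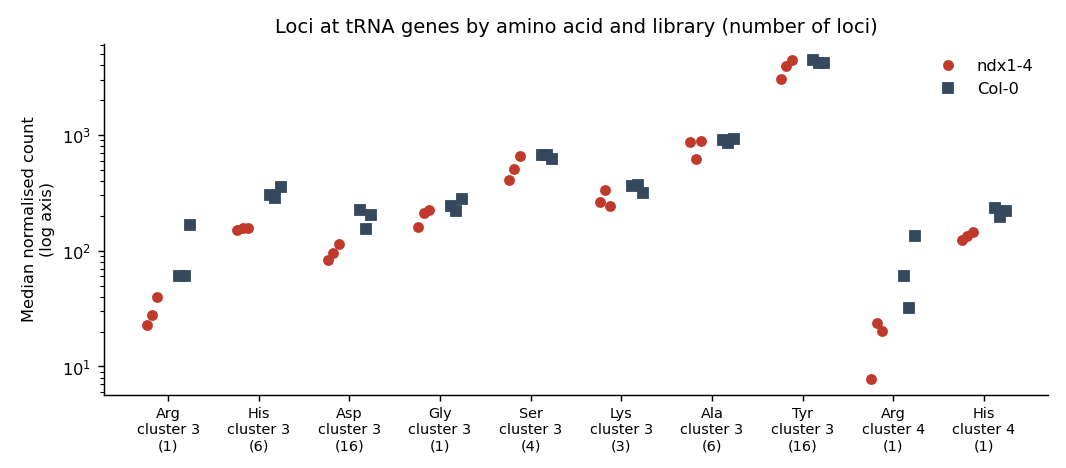
Median normalised count (log axis) of the loci at tRNA genes by amino acid, cluster and library, with ndx1-4 as circles and Col-0 as squares and the number of loci in brackets. The His loci of ndx1-4 sit at 152 to 157, below the 288 to 357 of Col-0, while the Tyr loci overlap at 3037 to 4407 and 4162 to 4450.

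The families also differed in which part of the tRNA gene was listed. The His loci ended at base 27 of a 72-base gene, the Asp loci at base 23 to 34, the Ser loci at base 23 or 24, the Lys loci at base 26 and the Ala loci at base 25, so that these 35 short loci of 27 to 46 bp covered the 5′ end alone. The Tyr loci were 93 to 561 bp long and covered the whole gene, as the printed sequence shows. The median level of the cluster 3 tRNA loci was -0.67, -0.52 and -0.19 in ndx1-4, against 0.06, -0.06 and 0.04 in Col-0, and ndx1-4 replicate 3 lay closest to Col-0. Other clusters of the list held 61 further tRNA loci with a median of -0.17, of which 11 were called lower and 0 higher. All 61 had a negative log2 fold change, so the shared sign was not particular to cluster 3.

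The snoRNA loci of cluster 3 were lower as well. All 15 had a negative log2 fold change (-1.13 to -0.16, median -0.49), against 978 of 1627 tested loci over the whole list. Of the 15, 8 were called lower, against 25.6% of the list. The most abundant, a locus over 5 annotated genes including AT1G29418, had 2908, 2919 and 1970 counts in ndx1-4, against 2236, 2332 and 2778 in Col-0 (log2 fold change -0.16, edgeR adjusted p 0.0743). The locus at AT2G08725 had 313, 399 and 342 counts, against 346, 389 and 435 in Col-0 (log2 fold change -0.38, edgeR adjusted p 0.0280), and that at AT2G05765 had 247, 348 and 293, against 357, 252 and 430 (log2 fold change -0.45, edgeR adjusted p 0.0565). Within a library the snoRNA and tRNA medians kept close together, at -0.07, 0.07 and -0.10 apart in ndx1-4 and -0.19, -0.09 and 0.13 in Col-0 (difference 0.02, exact permutation p 0.9). The U2 snRNA locus had 261, 271 and 232 counts in ndx1-4, against 228, 247 and 308 in Col-0 (log2 fold change -0.26, edgeR adjusted p 0.0795).

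Among the cluster 3 loci named by the rule for the lowest fold changes stood a locus at the tRNA-Arg gene AT5G35605, with 26, 35 and 35 counts in ndx1-4, against 54, 53 and 165 in Col-0 (log2 fold change -1.70, SE 0.424, edgeR adjusted p 5.83e-03). The lowest fitted value of the cluster lay outside that rule because of its low mean. The intergenic locus at chr4:9981826-9982029 had 1, 0 and 1 counts in ndx1-4, against 84, 69 and 83 in Col-0, and was named after its values were seen. The ratio of its summed normalised counts was 140-fold lower in ndx1-4, with an exact 95% counting interval of 38.3 to 1162.

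All 6 cluster 3 loci without a gene had negative fold changes and 4 were called lower. Of 1045 tested loci without a gene in the other clusters, 700 had negative fold changes and 295 were called lower. The cluster 3 loci at protein-coding genes were mostly higher. Of 34 tested, 21 were called higher, 8 lower and 5 neither, with a median log2 fold change of 0.59. This was not particular to cluster 3. In the other clusters, 108 of 159 tested loci at protein-coding genes were called higher and 20 lower, with a median of 0.71. A pair of adjoining loci in the S-locus pseudogene PSEUDOSRKA was near-identical in sequence and in counts, with 1795, 2283 and 2266 counts at the first in ndx1-4, against 2968, 2624 and 3194 in Col-0 (log2 fold change -0.68 at each). A pair in AT5G22960, an alpha/beta-hydrolase gene, had log2 fold changes of -0.67 and -0.66. The locus of the trans-acting siRNA gene TASIR-ARF, whose siRNAs target auxin response factor transcripts, had 601, 801 and 665 counts in ndx1-4, against 713, 708 and 658 in Col-0 and was not called (log2 fold change -0.24, edgeR adjusted p 0.133).

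Cluster 4 was more even in direction and wider in size. Of its tested loci, 88 had a log2 fold change above 1 and 9 below -1, against 11 and 18 in cluster 3. Changes above 8-fold in either direction were seen at 26 of its 146 tested loci (17.8%), with 20 higher and 6 lower. There were 2 (1.65%) in cluster 3 and 56 (4.12%) in the other clusters, with 38 higher and 18 lower. All 18 lay in cluster 5 (526 tested loci, -11.22 to 12.89), since no locus of clusters 6 to 9 fell below -0.94. Clusters 8 and 9 reached no more than 0.02 and 1.02. Large changes were therefore not particular to cluster 4. Cluster 4 loci were of low abundance, with a median of 104 normalised counts in ndx1-4 and 54.5 in Col-0, and the most abundant had a mean of 1390. The per-library medians of cluster 4 were 1.25, 1.14 and 1.16 in ndx1-4, against -0.01, 0.00 and 0.03 in Col-0, a narrower spread than the -0.49, -0.37 and -0.11 of cluster 3 in ndx1-4.

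The largest changes were between near absence and presence. The locus at chr3:3063408-3063609 lies at the 3′ end of AT3G09960, a calcineurin-like metallo-phosphoesterase gene, and overlaps its last coding exon. It had 689, 902 and 539 counts in ndx1-4, against 0, 0 and 0 in Col-0, and was at least 197.5-fold higher in ndx1-4 against a floor of 3 counts per library (643 ± 65.6 normalised counts, SD, n = 3, edgeR adjusted p 6.10e-08). The printed locus near AT5G20100 had 503, 567 and 395 counts in ndx1-4, against 0, 0 and 2 in Col-0, a ratio of 618 with an exact 95% counting interval of 171 to 5108. At chr2:6830242-6830419, 575 bp downstream of AT2G15690, the counts were 385, 461 and 269 in ndx1-4, against 0, 1 and 1 in Col-0 (ratio 470, interval 130 to 3889). The printed locus 946 bp upstream of SPT, a bHLH gene of carpel development, had 160, 187 and 100 counts in ndx1-4, against 0, 2 and 0 in Col-0 (ratio 189, interval 51.9 to 1562). Ratios over so few counts cannot be ranked against the limit given for AT3G09960, which was set with the floor.

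Other loci were nearly absent in ndx1-4. The printed locus 1526 bp upstream of ZIP3, a zinc transporter gene, had 1, 0 and 0 counts in ndx1-4, against 339, 402 and 385 in Col-0 (1335-fold lower in ndx1-4, counting interval 239 to 52760). The locus at chr1:18047849-18048084, 42 bp upstream of AMSH1, had 2, 3 and 2 counts in ndx1-4, against 587, 590 and 611 in Col-0 (2.13 ± 0.343 and 646 ± 30.0 normalised counts, SD, n = 3 each, log2 fold change -8.16, edgeR adjusted p 2.31e-09). At the 5′ end of HINT4, a gene for a histidine triad nucleotide-binding protein, the counts were 3, 5 and 1 in ndx1-4, against 364, 368 and 339 in Col-0 (log2 fold change -7.09, edgeR adjusted p 1.33e-08). The locus at chr4:10860343-10860548, 818 bp upstream of EMB1895, had 0, 0 and 0 counts in ndx1-4, against 98, 293 and 48 in Col-0, at least 58.4-fold lower, with Col-0 libraries that differed widely (164 ± 150 normalised counts, SD, n = 3, edgeR adjusted p 8.47e-04). None of these 8 loci had a near-identical copy or lay in a pericentromeric bin.

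**Figure D5:**
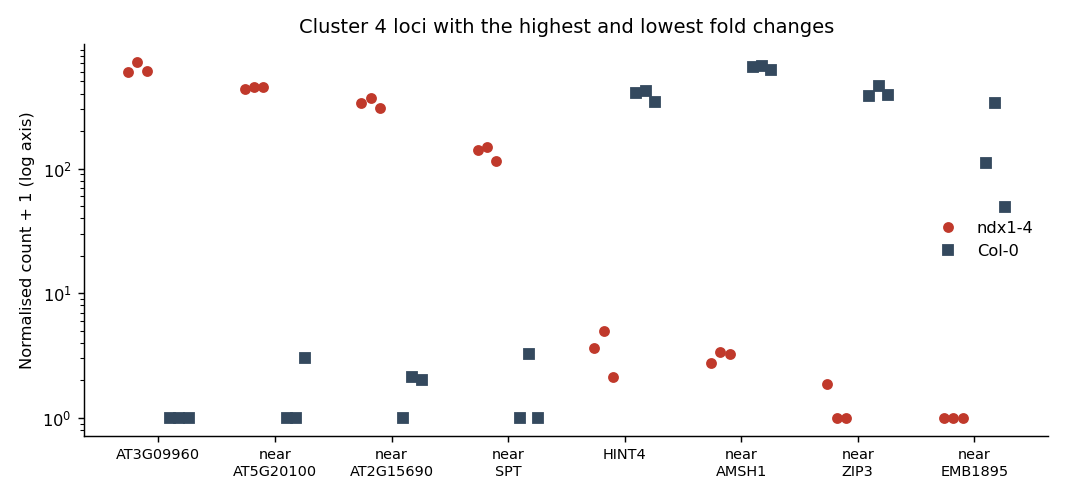
Normalised count + 1 (log axis) in each library of the cluster 4 loci named by rule for the 4 highest and the 4 lowest fold changes, with ndx1-4 as circles and Col-0 as squares. The loci were taken from called loci with a mean normalised count of 50 or more whose genotypes did not overlap. Their separation is fixed by that choice, and the limit on the mean left out a locus near AT1G63420 at -9.27. The locus near EMB1895 had 98, 293 and 48 counts in Col-0.

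The 3 most abundant cluster 4 loci had log2 fold changes below the cluster median of 1.17. At chr3:18563999-18564244, 889 bp downstream of the cyclin gene CYCD3;3, the counts were 1944, 2090 and 1399 in ndx1-4, against 959, 1089 and 1088 in Col-0, or 1648 ± 56.9 normalised counts in ndx1-4 and 1133 ± 91.2 in Col-0 (SD, n = 3 each; log2 fold change 0.54, edgeR adjusted p 1.67e-04). The locus at chr5:21552751-21552914, 156 bp downstream of AT5G53140, had 1627, 1469 and 883 counts in ndx1-4, against 597, 698 and 704 in Col-0 (log2 fold change 0.73, edgeR adjusted p 5.86e-04). Both calls were lost with the scale set outside pericentromeric bins, where the log2 fold changes were -0.04 and 0.14 (edgeR adjusted p 0.577 and 0.290). At chr5:8811888-8812373, 2143 bp upstream of the cyclin gene CYCA2;1, the genotypes overlapped, with 1356, 1651 and 1146 counts in ndx1-4, against 1219, 1097 and 1401 in Col-0 (log2 fold change -0.08, edgeR adjusted p 0.334).

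Cluster 4 loci were mostly higher both between genes and at genes. Of the 113 tested intergenic loci 97 were called higher and 10 lower (median log2 fold change 1.14), and of the 25 tested loci at protein-coding genes 22 were called higher and 3 lower (median 1.25). Within a library the intergenic minus the protein-coding median was -0.34, -0.20 and -0.18 in ndx1-4, against -0.09, 0.00 and 0.01 in Col-0, so the genotypes differed by -0.21 (exact permutation p 0.1). Of the protein-coding loci, 11 overlapped a coding exon, 11 a non-coding exon and 6 an intron. Compared at protein-coding genes only, cluster 4 stood above cluster 3 by 0.97, 0.78 and 0.75 in ndx1-4, against 0.04, -0.04 and 0.02 in Col-0 (difference 0.83, exact permutation p 0.1), so the clusters moved apart there too.

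Both loci of cluster 4 at other non-coding genes were called higher. AT1G09057 had 45, 43 and 42 counts in ndx1-4, against 0, 1 and 2 in Col-0, a ratio of 36.6 with an interval of 12.2 to 180, and AT4G07395 had 301, 359 and 226 counts, against 161, 138 and 153 (log2 fold change 0.72, edgeR adjusted p 3.95e-04). Its tRNA and snoRNA loci went the other way and resembled those of cluster 3. At the tRNA-His gene AT2G28770 a locus with the same 5′ extent as the cluster 3 His loci had 142, 167 and 127 counts in ndx1-4, against 211, 173 and 220 in Col-0 (log2 fold change -0.71, edgeR adjusted p 6.51e-04).

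In 2 places loci of both clusters stood side by side. At AT5G35605 the cluster 4 locus adjoined the cluster 3 locus described above and had 9, 30 and 18 counts in ndx1-4, against 54, 28 and 133 in Col-0 (log2 fold change -2.12, SE 0.540, edgeR adjusted p 6.39e-03). On chromosome 2 the cluster 4 snoRNA locus AT2G35387 lay next to the cluster 3 locus AT2G08725 and had 132, 155 and 126 counts in ndx1-4, against 140, 127 and 196 in Col-0 (log2 fold change -0.39, edgeR adjusted p 0.0460). Both pairs were lower in both clusters.

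Cluster 5, the largest of the other clusters with mostly higher loci, had 415 of 526 tested loci called higher, and a median log2 fold change of 0.77. Within a library the cluster 4 median exceeded that of cluster 5 by 0.44, 0.37 and 0.44 in ndx1-4, against -0.01, 0.01 and 0.01 in Col-0 (difference 0.41, exact permutation p 0.1). Cluster 4 loci were less abundant, with a median of 89.0 normalised counts over all libraries against 222 in cluster 5, and the part of abundance in the difference was not tested. The cluster 3 minus cluster 5 median was -1.30, -1.13 and -0.83 in ndx1-4, against 0.04, -0.02 and 0.01 in Col-0 (difference -1.10, exact permutation p 0.1).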

How the data were processed

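Small RNA libraries of inflorescence tissue were compared between ndx1-4 and Col-0 (3 each). The authors trimmed adapters (Cutadapt), selected reads by sRNA size and aligned them with sRNAnalyzer, allowing several alignments per read, to a published catalogue of sRNA loci on TAIR10. The deposited values used here are raw counts per locus and library, without normalisation. The table also holds the authors' log2 fold change, p-value, and direction columns, which were not used. It holds only loci selected by the authors, so loci outside it were not analysed here.

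TMM factors over all listed loci set the scale, and edgeR 4.0.16 in R 4.3.3 gave quasi-likelihood tests of a model holding genotype alone, with filterByExpr (1627 loci kept, 6 removed) and two-sided Benjamini-Hochberg adjusted p-values over all tested loci. The script was tested on simulated counts. Exact permutation over libraries served for values with 1 number per library. Fold limits used a floor of 3 counts per library. Intervals and floors cover counting error only, since no molecular identifiers are described, and p-values measure the spread between these libraries of pooled RNA. Coordinates were checked against TAIR10.1 (0 loci past a chromosome end), and genes, non-coding RNAs and mature miRNAs were taken from its RefSeq annotation. Near-identical copies are alignments of at least 95% identity over 100 bp, or over the whole of a shorter locus, found with BLAST+ 2.17.0. Pericentromeric bins are 500 kb bins in which protein-coding genes cover less than 0.5 times the chromosome's median.

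Loci were named by rule: per cluster, of the called loci whose genotypes did not overlap and whose mean normalised count was 50 or more, the 4 highest and 4 lowest in fold change, the 3 most abundant, and those at miRNA or other non-coding RNA genes (in full up to 8 of a class, otherwise by count, range and the 3 most abundant). PPR, AT1G17780 and tRNA family groupings, and other loci named, were chosen after values were seen. The members and lists were chosen with earlier results of these data known. The list gives no strand, so reads from a gene and its antisense partner cannot be told apart. Alternatives were median-of-ratios, column totals, a scale outside pericentromeric bins, other filters, DESeq2 1.42.0, other thresholds, a pseudocount of 5, removal of repeated loci, a replicate block and leaving out each library.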

Additional observations from a re-analysis of the deposited data

How the results depend on the processing

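The contrast between the clusters kept its direction in every alternative run for it. Leaving out 1 library at a time gave differences of 1.39 to 1.63 between genotypes in the cluster 4 minus cluster 3 median, and 4.69 to 6.42 percentage points in the cluster 4 share. The median difference was 1.42 with loci centred on all 6 libraries (added after seeing the data), where the cluster 3 and cluster 3 tRNA medians minus that of the list gave -0.28 (exact permutation p 0.3) and -0.41 (p 0.2), against -0.30 and -0.43 (p 0.1 each) with Col-0 centring. The cluster 4 minus cluster 3 difference was 1.25 without cluster 3 members at tRNA, snoRNA or snRNA genes (added after seeing the data), which left 25 higher and 15 lower calls in cluster 3. Leave-one-out fits gave 32 to 78 lower calls and medians of -0.41 to -0.25 in cluster 3, medians of 1.13 to 1.23 in cluster 4 and medians of -0.108 to -0.0471 over the list. The count of 78 was that without ndx1-4 replicate 3.

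Values that depend on the zero point moved with the scale. With column totals the median was 1.29 in cluster 4 and 0.0234 over the list, and the log2 fold change became 0.0388 at MIR161 and 0.0297 at the locus near CYCA2;1. With the scale set outside pericentromeric bins, cluster 3 had 10 higher and 96 lower calls and a median of -0.89, cluster 4 a median of 0.58 and the list one of -0.67, and the locus near CYCD3;3 moved to -0.0441. Leave-one-out values of MIR161 ran from -0.193 to 0.018, the highest being that without Col-0 replicate 2. Requiring 10 counts in every library left 9 lower calls and a median of 1.02 in cluster 4. Keeping 1 of any loci with identical counts gave medians of 1.10 in cluster 4 and -0.15 over the list. Among loci without a near-identical copy, cluster 3 had 7 higher calls and a median of -0.71, cluster 4 a median of 0.68 and the list one of 0.18. An adjusted p under 0.01 left 27 lower calls in cluster 3.

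Same-numbered libraries of the genotypes showed little shared deviation, with correlations of 0.01, 0.05 and -0.13. Whether they shared a harvest or batch cannot be told from these values. A fit with the replicate number as a block gave 123 higher and 17 lower calls in cluster 4 and 25 and 57 in cluster 3. Without the block, cluster 3 had 25 and 47. With 3 libraries per genotype, loci of few counts limit what could be called.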
